A study of Mus musculus with 6 samples.

Results

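The 10 genes described here are heart genes that GATA4 is known to control: the natriuretic peptides Nppa and Nppb, the sarcomere genes Myh6, Myh7, Tnnt2, Tnni3 and Actc1, and the transcription factor genes Nkx2-5, Tbx5 and Mef2c. They were chosen by name, by a rule that uses no signal value, though with earlier results of these data known. All 10 were found among 21938 protein-coding genes. CUT&RUN, in which an antibody brings a nuclease to DNA beside a bound protein, was carried out with antibodies to GATA4 or GATA6 in XEN cells, mouse stem cells of the extra-embryonic (primitive) endoderm, with 3 libraries per factor. All 6 libraries were given the same line, 3F2, a XEN line that carries the alleles Col1a1-TetO-OKSmCh and R26-M2rtTA, for inducible Oct4, Klf4 and Sox2, and an Oct4-GFP reporter. The cells were profiled in their starting state, before any reprogramming. By the labels, the 2 groups differ in the antibody alone, and neither is a heart cell. The question asked of these genes was whether heart targets of GATA4 are held by GATA4 or GATA6 in endoderm.

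GATA4 and GATA6 are closely related zinc-finger factors that read the same short motif, WGATAR. GATA4 is needed both in the primitive endoderm and in the heart. In cardiomyocytes it acts on promoters and enhancers together with Nkx2-5, Tbx5 and Mef2c, which are themselves among the 10 genes, and the natriuretic peptide promoters are among its classical targets.

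A gene was given every called region in its body or within 50 kb of any of its transcription start sites (TSSs). Because Nppa lies next to Nppb and Myh6 next to Myh7, the 10 genes occupied only 8 separate windows, 1039 kb in all. The library lists held between 42446 and 49597 regions, with a median maximum signal (the peak height of the fragment pileup over a region) of 4 in each. The signal was not scaled for depth and describes a region within its own library. The cut at a maximum signal above 5, used below as an alternative, was the same for every library and takes no account of depth. The labels state 30000000 reads per sample, and the number left in each library after filtering is unknown.

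The sequences shown first are those on which the comparison of promoters and distal regions turns. Capitals mark the 4 hexamers that fit WGATAR, which are AGATAA, its counterpart AGATAG, the form TGATAA that begins with T, and its counterpart TGATAG. They were read on either strand, so that some appear as their reverse complements. Sequence is from the GRCm38.p6 assembly. The Nppb start was the only TSS of the 10 genes inside a combined list, and the 30 bases that hold both of its hexamers are at chr4:147985800-147985829, plus strand. GENCODE places the start of Nppb at position 147985788 and RefSeq 112 bp further downstream, so these bases lie upstream of the RefSeq start and within the first exon of GENCODE. The 250 bases before the GENCODE start, chr4:147985538-147985787, in which 4 of the 5 signal maxima over the start fell, held no hexamer. The RefSeq promoters of Nppa, at chr4:148000472-148000721, and of Tnnt2, at chr1:135836084-135836333, each have a hexamer and lay in no called region of any library. The plus strand is given throughout, which is the coding strand of these 3 genes.
Nppb hexamer site: gcagcTGATAAatcagAGATAAccccaccc
Nppb before the GENCODE start: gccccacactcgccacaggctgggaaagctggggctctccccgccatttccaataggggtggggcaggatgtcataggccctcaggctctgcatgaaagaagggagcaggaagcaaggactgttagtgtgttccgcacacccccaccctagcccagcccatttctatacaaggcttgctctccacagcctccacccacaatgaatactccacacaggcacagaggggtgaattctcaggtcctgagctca
Nppa promoter: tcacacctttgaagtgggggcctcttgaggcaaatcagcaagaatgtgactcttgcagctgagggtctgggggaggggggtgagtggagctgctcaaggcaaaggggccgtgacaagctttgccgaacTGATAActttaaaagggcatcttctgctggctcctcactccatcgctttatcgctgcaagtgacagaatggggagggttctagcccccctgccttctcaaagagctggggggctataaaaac
Tnnt2 promoter: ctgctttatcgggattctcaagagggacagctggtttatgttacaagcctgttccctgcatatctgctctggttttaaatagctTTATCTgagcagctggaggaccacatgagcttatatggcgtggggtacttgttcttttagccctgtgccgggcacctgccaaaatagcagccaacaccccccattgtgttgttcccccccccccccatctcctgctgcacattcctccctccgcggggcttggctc

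Of the distal regions, 3 are shown as 100 bases to either side of the centre of their signal maxima, on the plus strand. The Mef2c region at chr13:83460672-83460872 was called in all 6 libraries. The region at chr17:26884989-26885189, in the Nkx2-5 window, is the only one in the window of a transcription factor gene that was in the GATA6 combined list and not in that of GATA4. The Nkx2-5 region at chr17:26850826-26851026 is the closest to that gene among those called in 3 or more libraries, and was picked after its values had been seen.
Mef2c upstream region: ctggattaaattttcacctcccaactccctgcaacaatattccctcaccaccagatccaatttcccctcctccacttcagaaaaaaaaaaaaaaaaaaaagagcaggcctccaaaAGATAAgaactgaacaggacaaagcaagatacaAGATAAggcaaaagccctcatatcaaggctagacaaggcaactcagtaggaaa
Nkx2-5 far upstream region: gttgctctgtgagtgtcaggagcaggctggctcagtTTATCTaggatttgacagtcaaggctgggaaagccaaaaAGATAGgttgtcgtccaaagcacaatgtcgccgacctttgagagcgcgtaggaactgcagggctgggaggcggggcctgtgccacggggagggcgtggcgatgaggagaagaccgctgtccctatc
Nkx2-5 near upstream region: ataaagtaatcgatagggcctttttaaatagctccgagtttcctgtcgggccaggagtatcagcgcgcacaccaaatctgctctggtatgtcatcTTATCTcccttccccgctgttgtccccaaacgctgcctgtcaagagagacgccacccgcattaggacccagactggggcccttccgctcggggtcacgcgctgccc

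In the combined lists, which hold the regions common to all 3 libraries of a factor, 7 of the 10 genes had a GATA4 region in their window, where 48.2% of all protein-coding genes did. The same count, 7 of 10, was found for GATA6, where 38.3% of genes had one. The genes without a GATA4 region were Actc1, Nkx2-5 and Tbx5, and those without a GATA6 region were Actc1, Tbx5 and Tnnt2. By separate windows rather than genes, 5 of 8 held a GATA4 combined region and 5 of 8 a GATA6 one. These were not the same windows, as that of Tnnt2 held a GATA4 region alone and that of Nkx2-5 a GATA6 region alone. No matching share of windows was computed for all genes. The counts were lower close to the genes. Within 10 kb of a TSS or in the gene body, 1 gene (Nppb) had a GATA4 region and 0 had a GATA6 region, against 29.8% and 21.5% of all genes. Within 1 kb of an own TSS the counts were again 1 of 10 for GATA4, against 19.8% of all genes, and 0 of 10 for GATA6, against 13.8%. At 100 kb, 8 of 10 genes had a region of either factor, where 59.9% and 49.9% of genes did. When a call in 2 of 3 libraries sufficed, 8 of 10 genes had a region of either factor, against 65.3% and 60.4% of all genes, and 1 of 10, Nppb, had a region within 1 kb of an own TSS for GATA4 and for GATA6, against 31.9% and 26.7%. When only regions with a maximum signal above 5 were combined, 7 genes had a GATA4 region (36.6% of all genes) and 2, Myh6 and Myh7, a GATA6 region (26.1% of all genes). Myh6 and Myh7 share a window and were counted through the same GATA6 region, by the start of the neighbouring gene Ngdn.

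In the single libraries, 8 of the 10 genes had a region in each GATA4 library and in GATA6 replicates 1 and 2, and 9 in GATA6 replicate 3. Among all genes the share was 85.1%, 83.5% and 83.2% in GATA4 replicates 1, 2 and 3 and 83.1%, 82.2% and 83.2% in those of GATA6, so that the 8 or 9 of 10 members stood near the background. The number of members with a region was the same, 8, in the GATA4 libraries and averaged 8.33 ± 0.577 in those of GATA6 (SD, n = 3), with a two-sided exact permutation p of 1. The 8 windows held 34, 36 and 29 regions in the GATA4 libraries and 23, 31 and 27 in the GATA6 libraries. The means were 33.0 ± 3.61 and 27.0 ± 4 (SD, n = 3 and 3), and the difference of 6 gave a two-sided exact permutation p of 0.200, where 0.1 is the smallest that 3 against 3 libraries allow. The libraries of the factors overlapped in this count. The outcome depended on the setting. With a maximum signal above 5 required, the GATA4 libraries averaged 20.3 ± 2.52 regions and each GATA6 library had 9 (SD, n = 3 and 3), a difference of 11.3 at the smallest p of 0.1 (two-sided exact permutation). Regions of 5 or less made up 75.7% to 76.2% of the whole GATA4 lists and 79.6% to 83.0% of those of GATA6, and the part of this in the difference was not tested. In windows of 100 kb the means were 55.3 ± 2.08 and 44.7 ± 3.21, a difference of 10.7, again at an exact permutation p of 0.1 (n = 3 and 3). In windows of 10 kb the GATA6 mean was the higher one, at 9.33 ± 0.577 against 8.33 ± 1.15, with an exact permutation p of 0.6 (n = 3 and 3). The same 8 genes had a region in all 6 libraries, as did 62.6% of all genes.

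**Figure D1:**
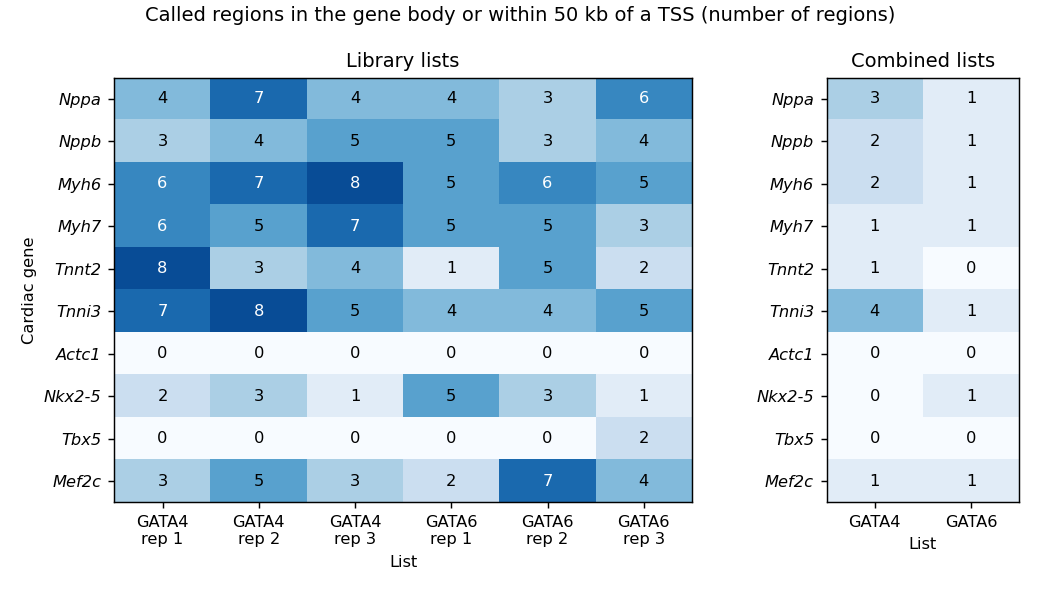
Number of called regions in the gene body or within 50 kb of a TSS for each of the 10 cardiac genes (rows) in each of the 6 library lists and in the 2 combined lists (columns); darker blue marks more regions, and a region shared by neighbouring genes is counted for each. Actc1 is at 0 in every column and Tbx5 has 2 regions in GATA6 replicate 3 alone, while the other 8 genes have at least 1 region in each library.

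Most of these regions were weak and were not seen again. The 6 lists merged into 99 regions in the windows, of which 70 were called in 1 library, and 60 of those 70 had a maximum signal of 5 or less. Called in 1 library were 70.7% of the merged regions in the windows and 83.2% of all 201994 merged regions. At the other end, 5 of the 99 were called in all 6 libraries (5.05%, against 1.88% of all merged regions). The plot of positions shows that these repeatedly called regions stood in a few columns, mostly far from the starts.

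**Figure D2:**
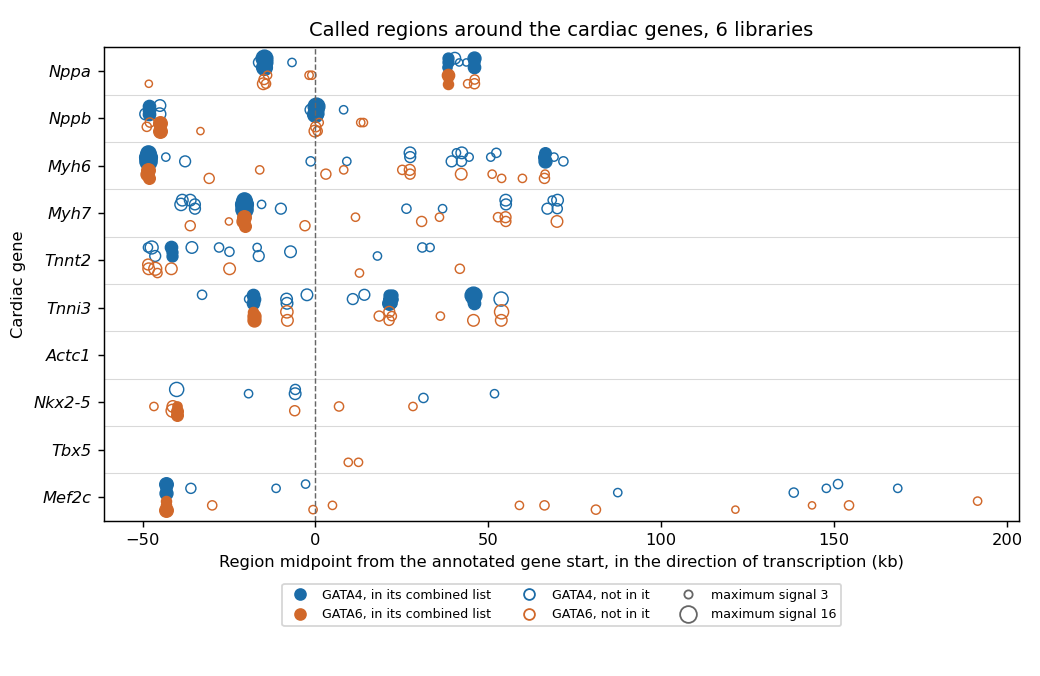
Midpoint of every called region relative to the annotated start of its gene (x axis, kb, positive in the direction of transcription) for each cardiac gene (rows), with GATA4 libraries in blue above and GATA6 libraries in orange below; filled points overlap the combined list of their factor and point area grows with the maximum signal. Filled points lie at the start itself only for Nppb; those of the other genes stand 14377 bp or more away.

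The natriuretic peptides gave the clearest case. Nppb encodes the B-type natriuretic peptide, which the loaded heart ventricle secretes, and Nppa encodes the atrial peptide; both lie on chromosome 4, at chr4:147985788-147987205 and chr4:148000722-148002079. The Nppb start was covered by a region in all 3 GATA4 libraries. In GATA4 replicate 1 it ran from position -322 to 338 bp relative to the GENCODE start, with a maximum signal of 16. In GATA4 replicate 2 it ran from -132 to 557 bp, with a maximum of 12. In GATA4 replicate 3 it ran from -656 to 508 bp, with a maximum of 14. By total signal these were at the 97.0, 98.0 and 98.5 percentiles of their own lists. The region ranked 723 of 8282 in the GATA4 combined list by its mean percentile.

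For GATA6, the Nppb start was covered in 2 of 3 libraries, by calls that stood lower in their own lists. The region of GATA6 replicate 2 had a maximum signal of 5 and was at the 77.5 percentile of its list, and that of replicate 3 had a maximum of 7 and was at the 88.3 percentile. GATA6 replicate 1 had no region over the start, and its nearest call began 712 bp downstream with a maximum of 3. The start was therefore in the GATA4 combined list and not in that of GATA6. Signals are unscaled, so the size of the difference between the factors was not tested. Both Nppb hexamers, which begin 17 and 28 bp downstream of the GENCODE start (95 and 84 bp upstream of that of RefSeq), were inside all 5 regions that covered the start. The centre of the signal maximum was 62, 15 and 57 bp from the first base of the nearer hexamer in GATA4 replicates 1, 2 and 3, and 85 and 61.5 bp in GATA6 replicates 2 and 3.

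**Figure D3:**
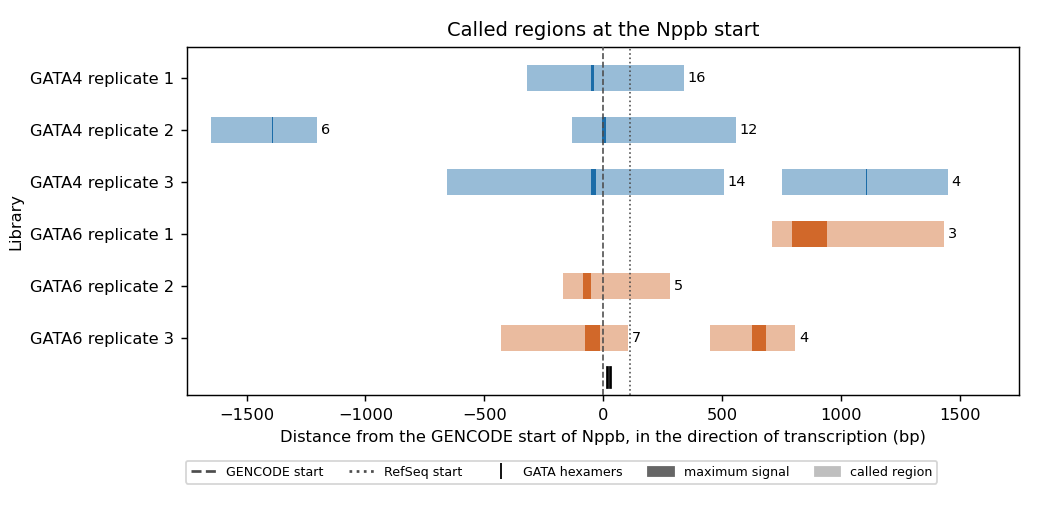
Called regions (pale bars) and the span of their maximum signal (dark bars) in each of the 6 libraries around the Nppb start, with the distance from the GENCODE start in bp on the x axis; the number after each bar is its maximum signal, the dashed and dotted lines are the GENCODE and RefSeq starts, and the black ticks at the bottom are the GATA hexamers. All 3 GATA4 libraries and GATA6 replicates 2 and 3 have a region across the start, with a maximum signal of 12 to 16 for GATA4 and of 5 and 7 for GATA6.

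Nppa had no such region. Its nearest GATA4 combined region was the one at Nppb, 14377 bp upstream. The only call within 1 kb of the Nppa start was in GATA6 replicate 1, 680 bp away with a maximum signal of 3. The TGATAA of its promoter, 122 bp upstream of the RefSeq start, was in no called region. Other combined regions near the peptides belonged by position to neighbouring genes. On the upstream side of Nppb were a GATA4 region 748 bp from the TSS of Plod1 and a GATA6 region 18 bp from that of 2510039O18Rik, 48014 and 44630 bp from Nppb.

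The cardiac myosin heavy chains Myh6 (alpha) and Myh7 (beta) are neighbours at chr14:54941921-54966927 and chr14:54970684-54994626, both on the minus strand. They shared the strongest region of all the windows, which was in both combined lists. It lay by the start of Ngdn (midpoint 120 bp away for GATA4 and 96 bp for GATA6), 20215 and 19800 bp upstream of Myh7 and 47914 and 47499 bp upstream of Myh6. Its maximum signal was 13, 18 and 17 in the GATA4 libraries and 10, 9 and 7 in the GATA6 libraries, and it ranked 278 of 8282 and 400 of 5170. It had no hexamer within 100 bp of its midpoint. A further GATA4 combined region was 43651 bp downstream of Myh6, with the TSS of Pabpn1 5761 bp away as the nearest coding start. Closer to the myosin genes, a region past the end of Myh6 was called in GATA4 replicates 1 and 2 and GATA6 replicates 1 and 2. Its maxima were 5 to 7, and it lay 4701 bp downstream of the nearest Myh6 TSS, which is not the annotated gene start. The nearest coding TSS was that of Cmtm5, 1798 bp away, and a TSS of the non-coding gene Gm49130 was 776 bp away. Upstream of Myh7, regions at 34675 and 38323 bp were called in 2 GATA4 libraries each and in no GATA6 library, with maxima of 6 to 8. The nearest coding TSS to both was that of Ngdn, 8066 and 11991 bp away.

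Of the 8 chromosomes that hold the members, chromosome 14 was the densest, at 2.25 ± 0.155 times the regions per Mb of the assembly in the GATA4 libraries and 2.46 ± 0.115 times in those of GATA6 (SD, n = 3). Of its genes, 52.8% had a GATA4 combined region in their window and 53.2% a GATA6 one. The myosin window had 3.27 ± 0.302 and 2.46 ± 0.521 times the density of the assembly (SD, n = 3). Set against its own chromosome, it had 1.46 ± 0.172 times the density for GATA4 and 1.01 ± 0.244 times for GATA6, so for GATA6 it did not stand above chromosome 14. The reason for the high density of this chromosome was not tested.

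Among the troponins, Tnni3, which encodes cardiac troponin I at chr7:4518305-4524229, had 4 GATA4 and 1 GATA6 combined regions in its window, the most GATA4 regions of the 10 genes. All were 16449 bp or more from a Tnni3 TSS. The GATA4 regions were 338 and 1316 bp from the TSS of Ppp1r12c, 851 bp from that of Eps8l1, and within Syt5. The Syt5 region was in both combined lists, with a maximum signal of 8, 8 and 8 in the GATA4 libraries and 5, 9 and 9 in the GATA6 libraries. Those of Ppp1r12c had maxima of 4 to 10 where called, and that of Eps8l1 of 16, 8 and 8 in the GATA4 libraries and 7 in GATA6 replicate 3. A region 7835 bp upstream of Tnni3, at the start of Dnaaf3, was called in 4 libraries and in neither combined list. None of the RefSeq promoter of Tnni3 was called in any library.

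Tnnt2, cardiac troponin T, at chr1:135836354-135852260, had 1 GATA4 combined region. It lay 41132 bp upstream in an intron of Tnni1, a troponin I gene of slow skeletal muscle, with maxima of 8, 6 and 6 in the GATA4 libraries and 7 in GATA6 replicate 2. The nearest GATA6 combined region, 64963 bp upstream, was outside the window. A second region, 15892 bp upstream in an intron of Lad1, was called in GATA4 replicates 1 and 3 alone, with maxima of 3 and 6. The number of Tnnt2 regions varied widely, at 8, 3 and 4 in the GATA4 libraries and 1, 5 and 2 in those of GATA6. One of them covered a Tnnt2 TSS in GATA6 replicate 3, with a maximum of 3. Actc1, the cardiac alpha-actin, at chr2:114047282-114053548, had 0 regions in its window in all 6 libraries, as had 4.55% of all genes. The nearest call in any library was 52790 bp away, and the nearest combined regions were 1767960 bp (GATA4) and 1790604 bp (GATA6) away.

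Of the 3 transcription factor genes, 1 had a GATA4 combined region in its window (48.2% of all genes) and 2 a GATA6 one (38.3% of all genes), and 0 had either within 1 kb of an own TSS (19.8% and 13.8% of all genes). Mef2c encodes a MADS-box factor of heart and skeletal muscle and of neurons, and its window was the longest. Its combined region lay in intergenic sequence 42953 bp (GATA4) and 42973 bp (GATA6) upstream of the nearest Mef2c TSS. It was called with a maximum signal of 10, 6 and 9 in the GATA4 libraries and 5, 5 and 10 in the GATA6 libraries, and ranked 3748 of 8282 and 3532 of 5170, near the middle of the GATA4 list and in the lower part of that of GATA6. Mef2c was the coding gene with the nearest TSS, and the sequence has 2 AGATAA hexamers. Of the 5 merged regions called in all 6 libraries, it and that at Nppb were the ones with a member as the nearest coding TSS, the latter because the GATA6 replicate 1 call downstream of the Nppb start was merged with the others.

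Nkx2-5, an early homeobox gene of the heart, at chr17:26838664-26845009 on the minus strand, had a GATA6 combined region 39780 bp upstream. Its maximum signal was 4, 7 and 7 in the GATA6 libraries and 11 in GATA4 replicate 1, and it was not called in GATA4 replicates 2 and 3. The region held 2 hexamers within 100 bp of the centre of its maxima and 0 within 100 bp of its midpoint. A second region, 41123 bp upstream, was called in GATA6 replicates 1 and 2 alone, with maxima of 7 and 9. The nearest coding TSS to these regions was that of Kifc5b, 31890 and 30744 bp away, and not that of Nkx2-5. A TSS of the long non-coding RNA gene Gm17382 was 974 and 145 bp away. Nearer to Nkx2-5, the region 5601 bp upstream, picked after its values had been seen, was called in GATA4 replicates 1 and 2 and GATA6 replicate 2 with maxima of 5, 7 and 5, and has a single hexamer. The nearest GATA4 combined region was 71453 bp away and outside the window. Tbx5, a T-box gene of the heart and forelimb, at chr5:119832668-119885219, had regions in GATA6 replicate 3 alone. A region in exactly 1 library was found for 2.23% of all genes. There were 2, each with a maximum of 3, and that named by the rule was in coding sequence 8727 bp from the nearest TSS. Its nearest combined regions were 161401 and 243012 bp away.

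Around the starts themselves, calls other than those at Nppb were isolated and low. Counting regions within 1 kb of an own TSS, 1, 2 and 2 members had one in GATA4 replicates 1 to 3 and 3, 1 and 3 in GATA6 replicates 1 to 3. The means were 16.7% ± 5.77 of members for GATA4 and 23.3% ± 11.5 for GATA6 (SD, n = 3). Among all genes 36.6%, 35.3% and 35.6% had such a region in the GATA4 libraries and 32.1%, 30.6% and 32.3% in those of GATA6. Apart from Nppb, these were Mef2c and Myh6 in single GATA4 libraries and Nppa, Myh6, Tnnt2 and Mef2c in single GATA6 libraries, with a maximum signal of 2 or 3 in each.

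The promoter sequences of 9 of the 10 genes were matched by symbol in RefSeq, with 13 promoters of 250 bases before and 50 after a start. Nppb had 2 hexamers, Nppa, Myh6 and Tnnt2 had 1 in 1 promoter each, and the others had 0. The Nppb promoter was overlapped by a region in 5 libraries and the others in 0 libraries, with or without a hexamer. Of all 32851 RefSeq promoters, 29.8% have at least 1 of these hexamers and 7.77% have 2 or more. Of the 3986 promoters overlapping a GATA4 combined region the shares were 18% and 2.89%, and of 2753 overlapping a GATA6 one 17.5% and 2.72%. Promoters in the combined lists had a higher median GC content (61.3% and 60.7%) than all promoters (52.7%), and that of Nppb was 55.7%. A hexamer match describes the letters alone and is no evidence of a site in use.

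In all, 12 GATA4 and 6 GATA6 combined regions overlapped the windows. With 1 kb as the limit, 1 of the 12 was at the TSS of a member (Nppb) and 5 at that of another coding gene, and of the 6 GATA6 regions 0 and 3. Among all combined regions 46.3% (GATA4) and 51.9% (GATA6) were within 1 kb of a coding TSS. A hexamer lay within 100 bp of the midpoint in 4 of 12 and 1 of 6, against 39.8% and 33.1% of all regions of those lists, shares of the same order as in the whole lists. The regions nearest to the limit of 50 kb were that of Plod1, 48014 bp from Nppb, on the inside, and the GATA6 region 64963 bp from Tnnt2 on the outside.

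The density of regions in the windows depended on how near to the genes they were counted. In the 50 kb windows it was 1.80 ± 0.226 times that of the assembly for GATA4 and 1.60 ± 0.309 times for GATA6 (SD, n = 3), while the windows of all protein-coding genes had 1.27 ± 0.00997 and 1.25 ± 0.00629 times. Without Myh6 and Myh7 the members had 1.55 and 1.46 times. Windows of 10 kb had 1.07 ± 0.173 and 1.29 ± 0.0958 times, where those of all genes had 1.38 ± 0.00700 and 1.34 ± 0.00558 times. The surplus at 50 kb was uneven. Against their own chromosomes, the window of the natriuretic peptides had 4.24 ± 0.701 and 4.11 ± 0.592 times the density, and that of Tnni3 4.44 ± 0.961 and 3.14 ± 0.359 times, while Mef2c had 0.997 ± 0.295 and 1.36 ± 0.827 times and Actc1 was at 0.

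For comparison, 20 genes of the extra-embryonic endoderm and 30 other heart genes were counted in the same way. These lists, too, were chosen with earlier results of the data known. Of the endoderm genes, 9 of 20 (45.0%) had a GATA4 combined region within 1 kb of an own TSS and 8 of 20 (40.0%) a GATA6 one. Among them were Sox17 and Sox7, transcription factor genes of the endoderm, the laminin genes Lama1, Lamb1 and Lamc1, and Dab2, an endocytic adaptor. Of the other heart genes, 6 of 30 had a GATA4 region at an own TSS and 5 of 30 (16.7%) a GATA6 one, close to the 19.8% and 13.8% of all genes. They were Ankrd1, a stress-responsive muscle protein, the connexin gene Gja5, the tropomyosin gene Tpm1 and the chromatin remodeller gene Smarcd3 for both factors, Myl4 and Tnnc1 for GATA4, and Srf for GATA6. Ankrd1 had maxima of 14, 17 and 14 in the GATA4 libraries, in the range of Nppb, and of 7, 7 and 7 in those of GATA6. In the 50 kb window, 16 of 20 endoderm genes and 16 of 30 other heart genes had a GATA4 combined region, and 14 of 20 and 15 of 30 a GATA6 one.

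**Figure D4:**
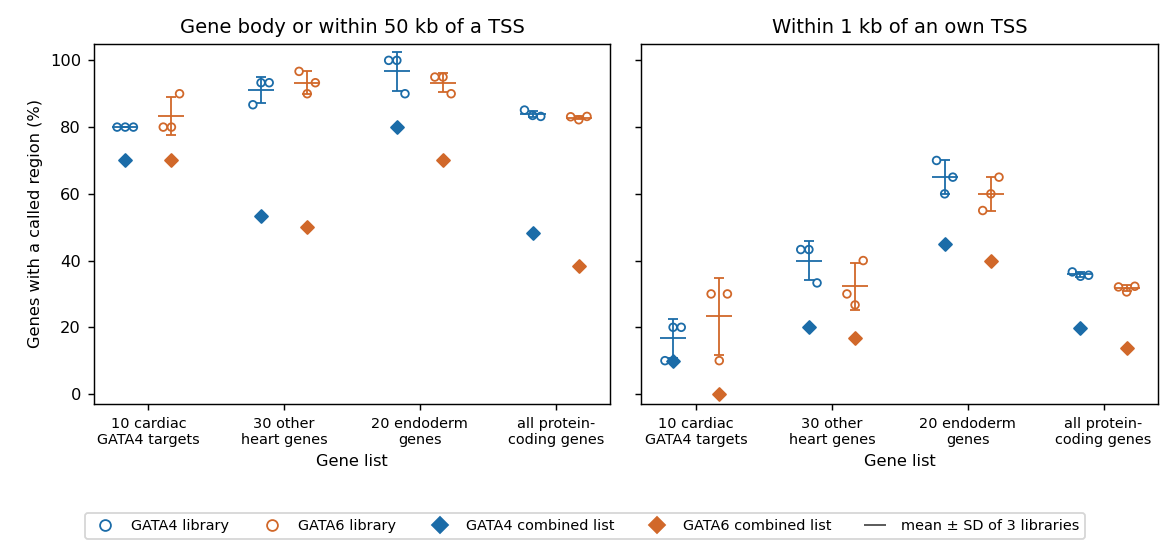
Share of genes with a called region (y axis, %) in the 10 cardiac genes, 30 other heart genes, 20 endoderm genes and all protein-coding genes, by the 50 kb window (left) and within 1 kb of an own TSS (right); open circles are the 6 libraries, bars their mean ± SD (n = 3) and diamonds the combined lists, GATA4 in blue and GATA6 in orange. On the left the cardiac genes are at 70.0% in both combined lists, where the endoderm genes are at 80.0% for GATA4 and an equal 70.0% for GATA6. On the right the cardiac genes are at 10.0% for GATA4 and 0% for GATA6, below the endoderm genes at 45.0% and 40.0%.

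The labels give line 3F2 throughout, while the study's methods name lines 3F2 and 3F6 and a different number of replicates. Each n of 3 therefore assumes 3 replicates of line 3F2, and no source states whether they came from separate cultures. The p-values then measure only the spread between these libraries. Expression of the 10 genes was not analysed here, and a called region says nothing of whether a gene is transcribed. An IgG control is described for the assay, and none was used here.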

How the data were processed

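GATA4 and GATA6 CUT&RUN libraries (3 each, grouped by sample title) were analysed. According to the submitters' processing notes and the study's methods, the authors aligned reads to mm10 with Bowtie2 2.3.4.1, filtered them with Picard and SAMtools, and called regions per library with SEACR 1.3. The deposited library lists give a total and a maximum signal per region, an unscaled fragment pileup; the combined lists were deposited as positions only. SEACR's mode is described differently in the methods and in the names of the lists, and was not checked. Read depth after filtering is unknown, so precision is the SD over libraries.

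Regions were assigned by an overlap of at least 1 bp to GENCODE M21 protein-coding genes. Combined lists recomputed from the library lists equalled those deposited. A two-sided exact permutation over libraries tested their counts, and lists of genes were described by counts beside the share of all genes. Hexamers were sought in GRCm38.p6 and RefSeq promoters. Single regions named were every combined region in a window, every merged region called in at least 4 of 6 libraries or in at least 2 of 3 of one factor and none of the other, and, for a gene with neither, the one called in most libraries. Some of the regions that this rule names are not reported here. Members and lists were chosen with earlier results of these data known. Alternatives covered the window, overlap, TSSs, signal filter (above 5), list length, libraries, motif window and replicate block. Scripts were tested on simulated data. The tools were matplotlib 3.10.9, samtools 1.23.1, pysam 0.24.0, scipy 1.17.1, numpy 2.4.6 and Python 3.11.15.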

Additional observations from a re-analysis of the deposited data

How the results depend on the processing

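Of 73 alternatives, 57 left a value within its limits and 3 reversed a difference. With 10 kb windows, 1 member kept a GATA4 combined region and 0 a GATA6 one, the differences between the factors became 0.333 members and -1 regions, and the GATA4 density was 1.07. Within 1 kb of an own TSS, a rule added after seeing the data, the counts were also 1 and 0. With a maximum signal above 5 required, 7 members had a GATA4 combined region (36.6% of all genes) but only 2, Myh6 and Myh7, a GATA6 one (26.1% of all genes). Myh6 and Myh7 were counted through the same region, by the start of Ngdn. Under this filter the difference in members was 1.33 and that in regions was 11.3 (exact permutation p = 0.1). The densities were 4.61 and 2.81, where the windows of all genes had 1.52 and 1.53. At 100 kb the difference in regions was 10.7 (exact permutation p = 0.1), and with lists of equal length or without Myh6 and Myh7 it was 3.33 (exact permutation p = 0.3 for each). Without Myh6 and Myh7 the GATA4 density was 1.55. Hexamers within 250 bp were found in 10 GATA4 and 4 GATA6 regions (61.6% and 54.4% of all regions). Within 100 bp of the maximum they were found in 5 of 12 GATA4 and 2 of 6 GATA6 regions, against 45.7% and 37.9% of all regions. Leaving out 1 library in turn gave a difference of -0.5 to 0 members (0 without GATA6 replicate 3). The cause of these changes was not tested. In the replicate block, the difference in regions was 6 (exact sign-flip p = 0.250, the smallest 3 pairs allow) and that in members -0.333 (exact p = 1); the deviations of same-numbered libraries correlated at 0.00102, 0.00148 and 0.00118, so the numbers gave no sign of pairing. Precision is limited by 3 libraries per factor and by the low signal of most regions.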
